A study of Mus musculus with 4 samples.

Results

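The nuclear genes for proteins of the mitochondrial ribosome were followed through the mRNA tables of a study of the long noncoding RNA H19 in mouse tumor-initiating hepatocytes. The members were the rows whose symbol begins with Mrpl or Mrps, followed by a number and at most 1 letter. This rule found 78 of 16211 listed genes, 49 named for the large subunit (Mrpl) and 29 for the small subunit (Mrps). The cells came from C57BL/6 mice. One mRNA library had the genotype label control and its title names a control hairpin (shcont), and the other was labelled H19 knockdown (shH19), so each group held 1 library. The latter is called the knockdown-labelled library below, for a reason given with the H19 counts. The labels used here do not give the hairpin sequences, their delivery, the age of the mice, or whether the cells were 1 clone. With 1 library per group no difference has a replicate check and no p-value was computed.

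Mitochondria keep a small genome whose messenger RNAs encode core subunits of the respiratory chain, and a ribosome of their own translates these messages on the inner membrane. The ribosomal RNAs of this ribosome are made in the organelle, whereas its proteins are encoded in the nucleus, translated in the cytosol and imported. The large subunit joins amino acids and the small subunit reads the message, and both carry proteins with bacterial relatives beside proteins found only in mitochondria. Hepatocytes are rich in mitochondria, and tumor cells vary in how far they rely on respiration.

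The control library had 33578868 reads assigned to genes and the knockdown-labelled library 34061172. H19 itself had 43 and 40 reads, a ratio of 0.931 with a 95% counting interval of 0.589 to 1.46, so the H19 counts do not bear out its label. Of 15 hepatocyte markers 13 had a row, and their summed reads were 115560 and 102758. Apob, Krt8, Krt18, Hnf4a and Trf made up most of them, while Alb had 129 and 88 reads and Afp 75 and 44. The 6 biliary and progenitor markers had a median log2 ratio of -0.053 with 3 on each side of 0. Among them Spp1 had 72614 and 73248 reads, Krt19 had 29919 and 39984, Krt7 had 6162 and 4194 and Sox9 had 122 and 109. Markers of other cells were scarce, with 0 of 6 lymphocyte genes listed, 72 and 73 summed reads of 2 endothelial genes, 73 and 56 of 2 fibroblast genes, and 3495 and 2641 summed reads of 5 macrophage genes, of which Cd14 had 3189 and 2417. The median log2 ratio was -0.28 for the hepatocyte list, with 9 genes below 0 and 4 above, among them Hnf4a at 0.22. It was -0.40 for the macrophage list, with 4 genes below 0 and 1 above, Cd68 at 0.24 with an interval that held 0. The part of both lists in the results below was not tested. In bulk RNA, fewer cells of a type and less RNA per cell cannot be told apart.

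Promoter sequences are shown first, because some features there, which the choice by symbol did not use, were more frequent in members than in listed genes. RefSeq (GRCm38.p6) gave at least 1 window of 250 bases before to 50 bases after an annotated start for 69 of the 78 members, 75 windows in all. Motifs known from promoters of nuclear genes for mitochondrial proteins were searched on both strands: GCGCA and GCGC separated by 1 base of any kind for NRF1, CCGGAAG for ETS factors such as GABPA, and AAGATGGCG for YY1. The NRF1 letters were in 17.3% of member windows and 9.35% of the 13610 windows of listed genes (4.60% of all 32851 windows). The ETS letters were in 34.7% of member windows against 16.5% of those of listed genes (8.86% of all), and the YY1 letters in 10.7% against 2.75% (1.40% of all). At least 1 of these 3 motifs was in a window of 41 of the 69 members. This count is by gene and not by window. It has no share of listed genes beside it, so it is not read as a trait of the members. The CRE letters TGACGTCA were in 2.67% of member windows and 3.02% of windows of listed genes, the E-box CACGTG in 9.33% and 9.60%, and TATAAA in 6.67% and 7.58%. The ETS letters end in AAG, with which the YY1 letters begin, so matches of both may overlap. A match describes letters only and not a bound site.

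The 250 bases before the start are printed 5′ to 3′ for the members with the highest and the lowest log2 ratio in each subunit among members with at least 100 reads, with matches to the 3 motifs in capitals.
Mrpl45, chr11:97315466-97315715, + strand: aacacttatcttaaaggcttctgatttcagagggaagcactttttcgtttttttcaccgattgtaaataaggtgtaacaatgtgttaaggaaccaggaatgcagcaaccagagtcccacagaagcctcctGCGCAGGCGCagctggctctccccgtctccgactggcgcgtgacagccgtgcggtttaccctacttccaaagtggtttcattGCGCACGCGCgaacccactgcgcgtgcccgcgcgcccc
Mrpl20, chr4:155802628-155802877, + strand: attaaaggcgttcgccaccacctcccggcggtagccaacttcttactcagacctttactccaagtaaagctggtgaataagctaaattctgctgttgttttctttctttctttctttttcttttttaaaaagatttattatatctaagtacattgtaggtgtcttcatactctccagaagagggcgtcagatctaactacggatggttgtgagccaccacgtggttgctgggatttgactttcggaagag
Mrps2, chr2:28467816-28468065, + strand: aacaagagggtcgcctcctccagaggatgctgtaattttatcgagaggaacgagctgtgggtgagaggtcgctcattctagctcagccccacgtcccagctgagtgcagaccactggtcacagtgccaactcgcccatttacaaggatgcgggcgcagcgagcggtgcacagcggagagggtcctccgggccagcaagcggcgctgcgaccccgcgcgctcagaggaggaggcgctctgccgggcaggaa
Mrps33, chr6:39810937-39811186, - strand: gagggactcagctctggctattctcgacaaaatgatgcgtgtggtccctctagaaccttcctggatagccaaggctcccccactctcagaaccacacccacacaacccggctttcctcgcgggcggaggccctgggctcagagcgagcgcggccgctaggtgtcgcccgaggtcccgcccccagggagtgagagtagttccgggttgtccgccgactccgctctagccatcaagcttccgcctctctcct
Mrpl45, which had the highest ratio of the large subunit, carried 2 NRF1 matches before its start and another after it. No match lay in the stretches of Mrpl20, Mrps2 and Mrps33, although Mrps33 had an ETS match after the start. The RefSeq gene spans of Mrpl45 and Mrps2 begin upstream of these windows, so each of these 2 genes has another annotated start.

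Many members lie head to head with another gene. Of the 69 members with a window 26 (37.7%) had an annotated start of another gene on the opposite strand within 1000 bases upstream, against 20.2% of 10635 listed genes. The stretches between both starts are printed for 4 pairs whose partner also acts in mitochondria, in the direction of the first gene named.
Mrps11 and Mrpl46, chr7:78783090-78783130, + strand: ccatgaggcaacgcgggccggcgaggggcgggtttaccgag
Mrpl43 and Twnk, chr19:45006443-45006557, - strand: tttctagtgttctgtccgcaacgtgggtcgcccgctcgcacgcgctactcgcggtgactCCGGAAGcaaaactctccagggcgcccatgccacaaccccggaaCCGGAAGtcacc
Mrps12 and Sars2, chr7:28741822-28741967, - strand: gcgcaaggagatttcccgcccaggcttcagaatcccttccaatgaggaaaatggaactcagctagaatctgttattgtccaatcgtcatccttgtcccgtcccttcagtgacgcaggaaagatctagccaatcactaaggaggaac
Mrps27 and Ptcd2, chr13:99344679-99344785, + strand: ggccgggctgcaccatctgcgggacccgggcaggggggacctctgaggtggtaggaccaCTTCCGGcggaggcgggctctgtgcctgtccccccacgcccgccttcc
In the first pair 41 bases separate the starts of a small and a large subunit gene. Twnk is the mitochondrial DNA helicase, Sars2 the mitochondrial seryl-tRNA synthetase and Ptcd2 a mitochondrial RNA processing protein. The stretch between Mrpl43 and Twnk held 2 ETS matches, and that between Mrps27 and Ptcd2 held 1.

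Most members had slightly fewer reads in the knockdown-labelled library. The 78 genes together had 136932 reads in the control and 131065 in the knockdown-labelled library, or 4051 and 3873 CPM (counts scaled to library size by the TMM method of edgeR). The median log2 ratio (knockdown-labelled library over control, 1 count added) was -0.057, against -0.0015 over all 16211 genes. A total of 54 members lay below 0 and 24 above. The 95% counting interval lay wholly below 0 for 29 of 78 members (37.2%), against 19.9% of all genes tested, and wholly above 0 for 4 (5.13%), against 21.6%. Intervals narrow with reads, and 64 members had at least 1000 reads in 1 library. Of these 24 (37.5%) were below and 3 (4.69%) above by that rule, against 27.5% and 34.8% of the 6495 genes with as many reads.

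The differences were small. At least 1.2-fold lower were 5 members (6.41%), against 17.6% of all genes, and at least 1.2-fold higher were 0, against 14.9%. Among genes with at least 1000 reads in 1 library these shares were 4.69% of members and 4.85% of genes for lower ratios, and 0.00% and 7.19% for higher ones. No member reached 1.5-fold in either direction. The standard deviation (SD) of the log2 ratio among the 64 members with at least 1000 reads was 0.107, against 0.177 among the 6495 genes with as many reads and 0.049 from counting alone. The intervals cover counting error only, so hairpin and culture cannot be told apart in the rest of this spread.

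**Figure D1:**
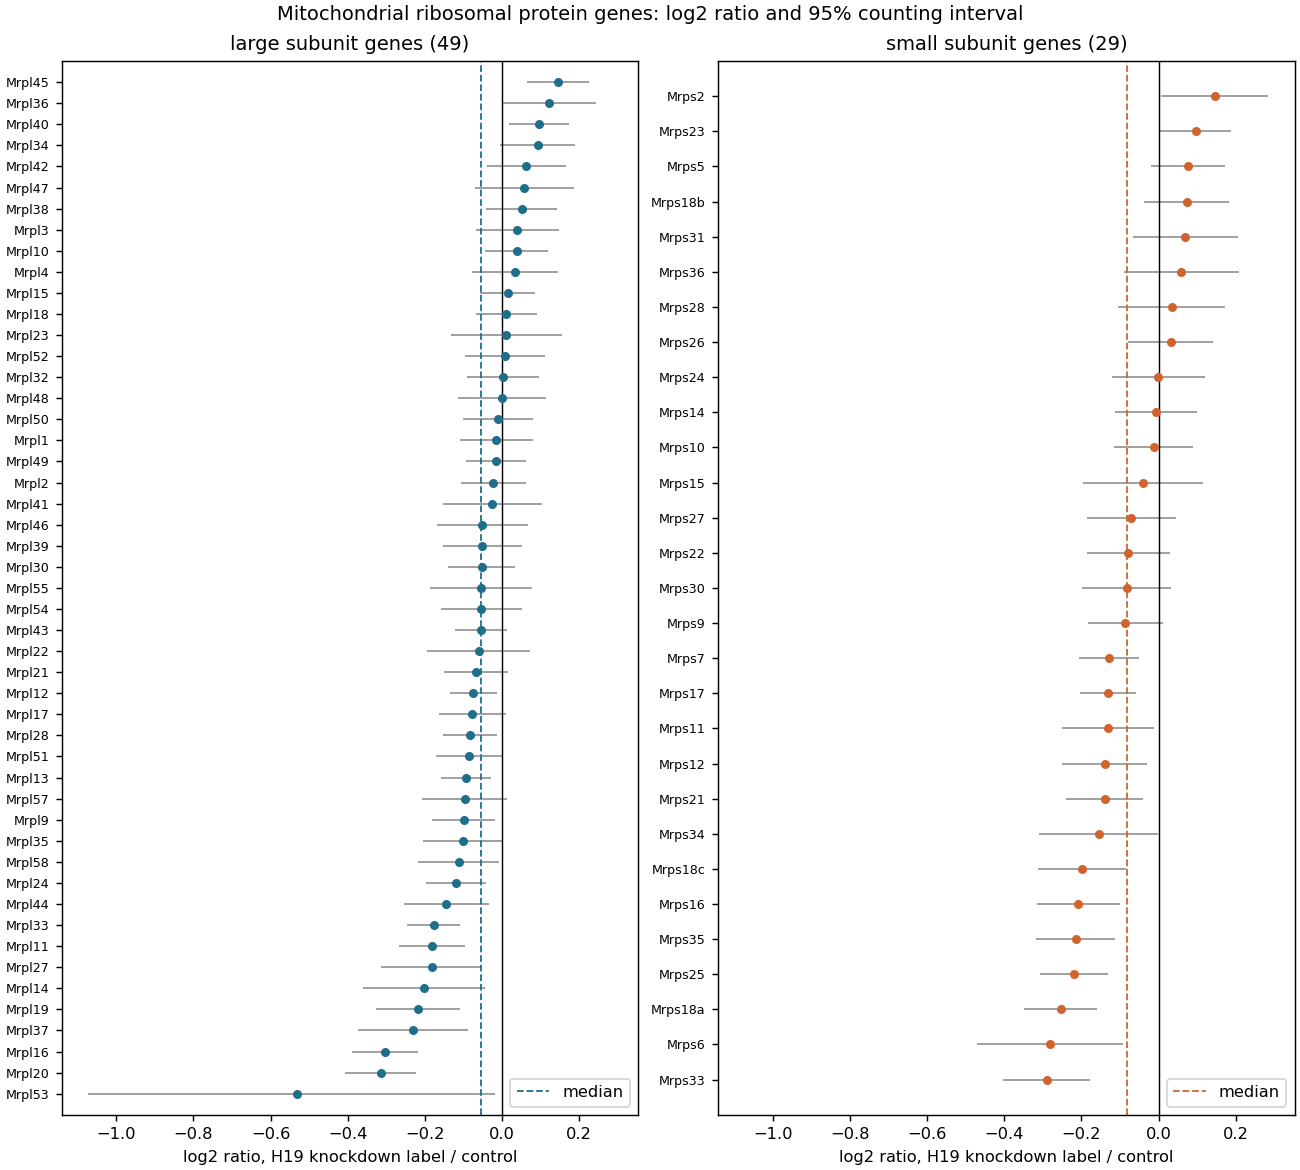
Log2 ratio (x axis) of each large subunit gene (left) and small subunit gene (right), ordered by ratio, with its 95% counting interval as a bar and the median of the subunit as a dashed line. Mrpl45 and Mrps2 stand highest at 0.15, and Mrpl53, with 77 and 53 reads, has the lowest ratio and the widest interval.

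**Figure D2:**
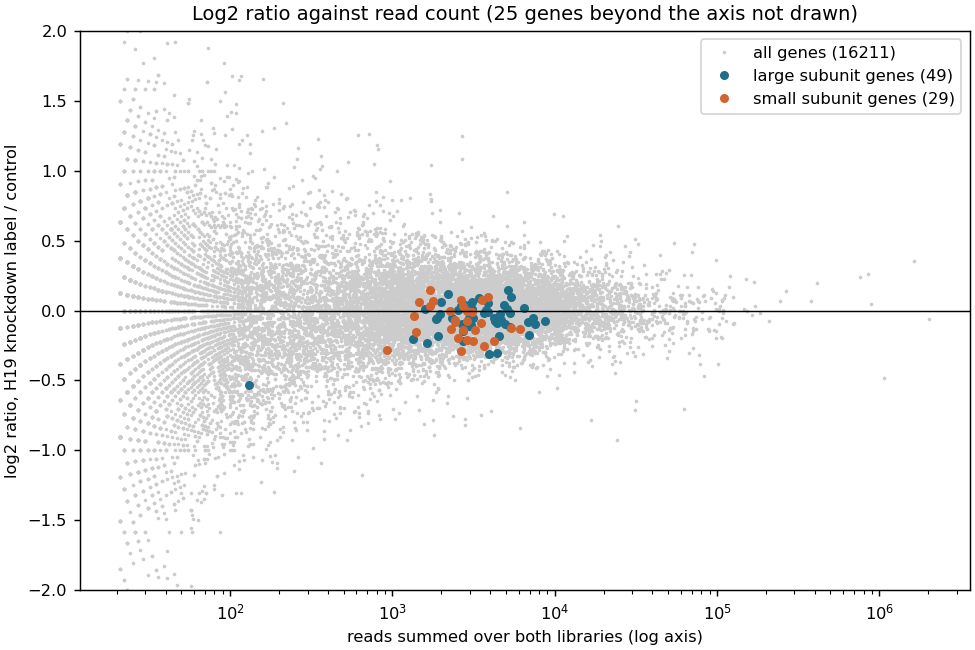
Log2 ratio (y axis) against reads summed over both libraries (log x axis) for all 16211 genes in grey and the members in color. Apart from Mrpl53 at -0.53 the members lie between -0.31 and 0.15, in a range of reads where other genes reach further in both directions. Genes beyond a log2 ratio of 2 in size are not drawn.

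The subunits were then compared. Large subunit genes had summed levels of 2810 and 2705 CPM and small subunit genes of 1241 and 1169 CPM, in the control and the knockdown-labelled library. The median log2 ratio was -0.054 for the 49 large and -0.083 for the 29 small subunit genes, a difference of medians of 0.029. The SD of single genes was 0.122 in each subunit, and the difference of medians was not tested. Below 0 by the interval were 16 of 49 large (32.7%) and 13 of 29 small subunit genes (44.8%), against 19.9% of all genes. Above 0 were 2 large (4.08%) and 2 small subunit genes (6.9%), against 21.6%. With at least 1000 reads in 1 library 13 of 42 large (31.0%) and 11 of 22 small subunit genes (50%) were below. Of genes with as many reads 27.5% were below, so the share of the large subunit below 0 lay near that background. Above 0 were 4.76% of large and 4.55% of small subunit genes, against 34.8% of genes with as many reads. Symbol and place do not fully match: Mrps18a and Mrps30 are parts of the large subunit in structures of the mammalian ribosome, and Mrps36 is known as part of the 2-oxoglutarate dehydrogenase complex. With these genes placed by structure the medians were -0.054 over 51 large and -0.082 over 26 small subunit genes. With the median of each gene's chromosome subtracted the medians were -0.037 and -0.106, a difference of 0.069. The difference was 0.055 with at least 1000 reads in 1 library, and 0.014 with means in place of medians.

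In the large subunit the lowest ratios with at least 100 reads belonged to proteins with bacterial relatives and to 1 protein of mitochondria alone. Mrpl20, which binds ribosomal RNA, had 2193 reads in the control and 1765 in the knockdown-labelled library, a log2 ratio of -0.31 (interval -0.41 to -0.22). It lies on chromosome 4 at 155802878 to 155808831 (GRCm38.p6). Mrpl16, a core protein near the site where tRNAs bind, had 2449 and 1987 reads (-0.30, interval -0.39 to -0.22). Both were lower by more than counting error.

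Mrpl37, found only in mitochondria, had 880 and 751 reads (-0.23, interval -0.37 to -0.09). Mrpl19 had 1471 and 1266 reads (-0.22, interval -0.33 to -0.11) and Mrpl14 had 717 and 624 (-0.20, interval -0.36 to -0.05). All of these intervals lay below 0. Mrpl53, a protein of the stalk that receives translation factors, had 77 and 53 reads and a log2 ratio of -0.53 (interval -1.07 to -0.02). It was the member with the fewest reads and the only one under 100 in both libraries, and it shares 14 bases with Ccdc142, which had 78 and 59 reads.

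The highest large subunit ratio was that of Mrpl45, which links the exit of the peptide tunnel to the inner membrane. It had 2430 and 2691 reads, a log2 ratio of 0.15 (interval 0.07 to 0.23). Mrpl40, of the central protuberance, had 2597 and 2779 reads (0.10, interval 0.02 to 0.17). These were the 2 large subunit genes above 0 by the interval. Mrpl36 had 1056 and 1150 reads, Mrpl34 had 1653 and 1764 and Mrpl42 had 1510 and 1579. Their log2 ratios of 0.12, 0.09 and 0.06 had intervals that held 0.

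The most counted members were all of the large subunit. Mrpl12, a stalk protein that also binds the mitochondrial RNA polymerase, had 4463 and 4244 reads (-0.07, interval -0.14 to -0.01). Mrpl13 had 3884 and 3644 reads (-0.09), Mrpl43 had 3721 and 3587 (-0.05), Mrpl33 had 3674 and 3254 (-0.18) and Mrpl28 had 3495 and 3304 (-0.08). Each was lower in the knockdown-labelled library, and only the interval of Mrpl43 held 0 among these 5. With the median of its chromosome subtracted Mrpl43 lay above 0, at 0.048.

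By place in the large subunit, 5 of 8 proteins of the rRNA core lay below 0, at a median of -0.11, 4 of them by the interval. Of the 5 stalk proteins 4 lay below 0 at a median of -0.07, 3 by the interval, Mrpl53 among them. The 8 tunnel exit proteins had a median of -0.06 with 5 below 0 and 2 by the interval. The 8 central protuberance proteins had a median of 0.004, with 5 above 0 and 1 interval on each side. By the interval 19.9% of all genes tested lay below 0, and 27.5% of genes with at least 1000 reads in 1 library. The lists by place hold few genes and leave out other large subunit members, and differences between them were not tested.

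In the small subunit Mrps33, a protein of the head found only in mitochondria, had the lowest ratio. It had 1449 and 1186 reads, a log2 ratio of -0.29 (interval -0.40 to -0.18). Mrps6 had 510 and 420 reads (-0.28, interval -0.47 to -0.09). Mrps6 overlaps Slc5a3, a transporter gene read at 568 and 647, over 29138 bases, so reads of both may be hard to assign.

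Mrps25 had 2282 and 1962 reads (-0.22, interval -0.31 to -0.13) and Mrps35 had 1694 and 1461 (-0.21, interval -0.32 to -0.11). Mrps2 had the highest ratio at 0.15 (interval 0.01 to 0.28) with 809 and 896 reads. Mrps23 followed with 1879 and 2011 reads (0.10, interval 0.005 to 0.19). These were the 2 small subunit genes above 0 by the interval. Mrps5 had 1732 and 1828 reads (0.08) and Mrps31 had 869 and 913 (0.07), with intervals that held 0.

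Of the members with few reads, Mrps15 had 686 and 668 reads (-0.04, interval -0.20 to 0.12, and 0.13 with its chromosome's median subtracted) and Mrps34 had 732 and 658 (-0.16, interval -0.31 to -0.0014). Both intervals came close to or held 0. By place, 7 of 8 head proteins lay below 0 at a median of -0.05, 3 by the interval. Of 16 body proteins 12 lay below 0 at a median of -0.13, and 9 of them by the interval. Mrps12, which acts in decoding, was among these with 1415 and 1286 reads (-0.14, interval -0.25 to -0.03). The head and body lists leave out Mrps2 and Mrps23, both above 0 by the interval, so neither list held an interval above 0. By the interval 19.9% of all genes tested lay below 0, and 27.5% of genes with at least 1000 reads in 1 library.

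Of the 3 paralogs of bacterial protein S18, 2 lay below 0 by the interval and the interval of 1 held 0. Over all genes tested 19.9% lay below 0 by the interval. Mrps18a, in the large subunit by structure, had 2003 and 1682 reads (-0.25, interval -0.35 to -0.16). Mrps18c had 1347 and 1175 reads (-0.20, interval -0.31 to -0.08). Mrps18b had 1291 and 1359 reads (0.07, interval -0.04 to 0.18). The intervals of Mrps18a and Mrps18c overlapped. All of these intervals cover counting error only, and the difference between the paralogs was not tested. Mrps30, the other S-named protein of the large subunit, had 1255 and 1186 reads (-0.08, interval -0.20 to 0.03), and Mrps36 had 717 and 748 (0.06, interval -0.09 to 0.21).

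Grouped by origin, the 48 members with a bacterial counterpart had a median log2 ratio of -0.071, with 34 below 0, and the 27 found only in mitochondria had a median of -0.051, with 18 below 0. By the interval 21 of the first and 7 of the second lay below 0, and 1 and 3 above. Of all genes tested 19.9% lay below and 21.6% above. With at least 1000 reads in 1 library these shares were 27.5% and 34.8%. Some members were in neither list, and the difference between the groups was not tested.

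Levels were compared between genes per length, as CPM per kilobase of the longest coding transcript in GENCODE M1, which gave a length for 76 members. The median was 39.6 and 37.8 for large subunit genes and 33.7 and 31.7 for small subunit genes, in the control and the knockdown-labelled library. Mrpl52 stood highest in both libraries at 111 and 111. In the control Mrps21 (102) and Mrpl12 (100.3) followed, whereas in the knockdown-labelled library Mrpl12 (95.3) and Mrpl28 (93.2) stood above Mrps21 (92.5). Mrpl53 stood lowest in both at 3.56 and 2.45. Next in the control was Mrpl47 at 8.52, and in the knockdown-labelled library Mrpl19 at 7.48, where Mrpl47 had 8.87. The longest transcript may not be the one used in these cells, which would understate genes such as Mrps25, whose longest transcript has 6073 bases. On a log scale the CPM of the 78 members correlated between the libraries at a Pearson r of 0.990, a description across genes of 2 libraries.

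**Figure D3:**
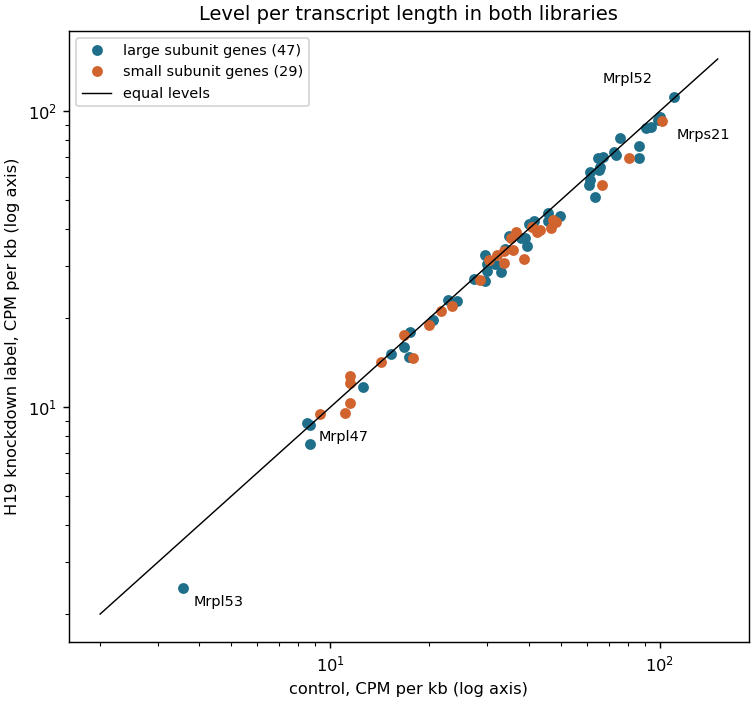
CPM per kilobase of transcript in the knockdown-labelled library (y axis) against the control (x axis), both on log axes, for the 76 members with a length, with a line of equal levels. The genes keep close to the line over a range from Mrpl53 at 3.56 to Mrpl52 at 111 in the control.

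Genes of some chromosomes shared a shift, and members there lay on the same side. Over all tested genes the median log2 ratio was -0.175 on chromosome 4 (896 genes), -0.107 on chromosome 6 (718) and -0.103 on chromosome 19 (531), while the other chromosomes with members lay between -0.020 and 0.056. All 16 members on these 3 chromosomes lay below 0. The 7 on chromosome 6 had a median of -0.22, from -0.53 to -0.09, and included Mrps33, Mrps25, Mrps35, Mrpl19 and Mrpl53. The 4 on chromosome 4 had a median of -0.13 and the 5 on chromosome 19 one of -0.07. No member lies on chromosome 12, whose genes had a median of 0.26.

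Of the 62 members elsewhere 38 lay below 0, with a median of -0.051, and 20 intervals lay below and 4 above 0. All genes not placed on chromosomes 4, 6, 12 or 19 had a median of 0.011, with 2302 intervals below and 3078 above 0 of 13586. These include symbols to which no chromosome could be assigned. With chromosome medians subtracted Mrpl20 was at -0.14, Mrpl16 at -0.20, Mrpl37 at -0.055 and Mrps33 at -0.18, and the median of all members was -0.061. The number of intervals below 0 was again 29 and above 0 again 4. On chromosome 5, where all genes had a median of -0.0015, all 4 members lay below 0.

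**Figure D4:**
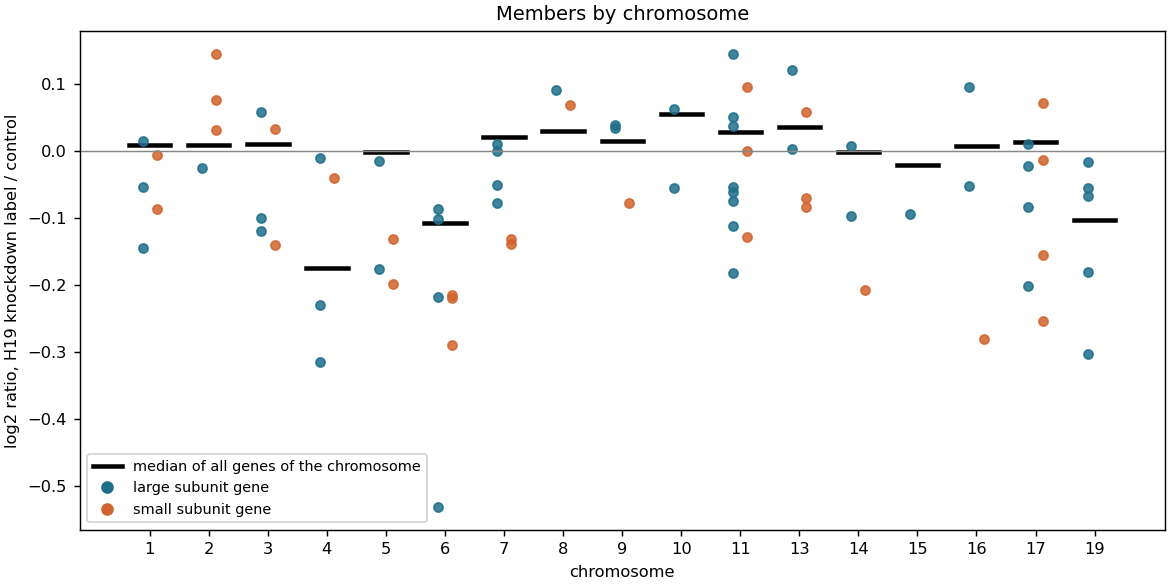
Log2 ratio (y axis) of each member, by chromosome (x axis), in blue for large and orange for small subunit genes, with the median of all tested genes of the chromosome as a black bar. The bars of chromosomes 4, 6 and 19 lie lowest, and all 16 members there lie below 0.

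Mrpl23 is the member that neighbors H19. It lies on chromosome 7 at 142532467 to 142540747, 34782 bases before the H19 gene at 142575530 to 142578146 (GRCm38.p6). It had 795 reads in the control and 802 in the knockdown-labelled library, a ratio of 1.01 with an interval of 0.912 to 1.11.

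Head-to-head partners did not always share the direction of the member. Of the 26 members with such a partner 14 had a ratio on the same side of 0 as the partner, Mrps11 and Mrpl46 counted once each. Mrps11 had 1203 and 1099 reads (-0.13, interval -0.25 to -0.01) and Mrpl46 had 1188 and 1148 (-0.05, interval -0.17 to 0.07). Mrps12 was at -0.14 while Sars2 had 452 and 547 reads (0.27). Mrpl27 had 1012 and 893 reads (-0.18), while its partner Eme1, a DNA repair nuclease subunit, had 672 and 868 (0.37). Mrpl43 and Twnk were at -0.05 and -0.16.

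Members with and without a motif were set side by side. The median log2 ratio was -0.077 for 13 members with the NRF1 letters and -0.054 for 56 without. It was -0.077 for 26 with and -0.051 for 43 without the ETS letters, and -0.086 for 8 with and -0.054 for 61 without the YY1 letters. Differences between these medians were not tested. Among the factors, Nrf1 had 1115 and 1197 reads (0.10), Gabpa had 2667 and 2927 (0.13) and Yy1 had 1945 and 2458 (0.34). Yy1 lies on chromosome 12. Esrra, a nuclear receptor that activates genes of respiration, had 4432 and 3355 reads (-0.40, on chromosome 19), and Pprc1, a coactivator of the same genes, had 1273 and 1109 (-0.20, chromosome 19). Ppargc1b, another such coactivator, had 102 and 118 (0.21, interval -0.19 to 0.61). Of 10 such regulators 3 lay above 0 by the interval, among them Mycn with 45 and 72 reads, and 2 below. Over all genes tested 21.6% lay above and 19.9% below.

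Other genes of mitochondrial translation were read beside the members. Other symbols are carried by 5 further ribosomal proteins. Ptcd3 had 4109 and 3475 reads (-0.24), Aurkaip1 had 1810 and 1475 (-0.30) and Chchd1 had 2173 and 1917 (-0.18), all small subunit proteins with intervals below 0. Aurkaip1 lies on chromosome 4, where all tested genes had a median of -0.175. Chromosomes are named for only some genes of this and the further groups below. Ratios of the others were not set against a chromosome median. Dap3, a GTP-binding protein of the small subunit, had 3837 and 3906 reads (0.02). Gadd45gip1, of the large subunit, had 1238 and 1354 (0.13, interval above 0).

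Of 24 listed genes for ribosome assembly 16 lay below 0, at a median of -0.051, 5 by the interval, with 2 above. Over all genes tested 19.9% lay below 0 by the interval and 21.6% above. The assembly calls below 0 lay near that share, and those above 0 were fewer. Nsun4, an rRNA methyltransferase on chromosome 4, had 629 and 426 reads (-0.56). Malsu1, which guards the joining of the subunits, had 765 and 649 (-0.24) and Rnmtl1, another rRNA methyltransferase, 591 and 497 (-0.25), whereas the helicase Ddx28 had 898 and 1117 (0.31). Of 19 translation factors 12 lay above 0, at a median of 0.067, 6 by the interval and 1 below. Of all 16211 genes tested 7958 lay above 0, and 21.6% of the genes tested did so by the interval. Among genes with at least 1000 reads in 1 library 3567 of 6495 lay above 0, and 34.8% by the interval. The factors were not limited to such read counts, and their difference from these shares was not tested. Mtrf1l, a release factor, had 293 and 346 reads (0.24), Slirp, an RNA-binding protein on chromosome 12, 1084 and 1269 (0.23), the elongation factor Gfm2 1501 and 1670 (0.15) and the initiation factor Mtif3 989 and 885 (-0.16).

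Of 17 mitochondrial tRNA synthetases 11 lay below 0, at a median of -0.031, with 4 intervals above and 2 below. Sars2 was at 0.27, and Lars2 and Rars2 were at -0.24 and -0.22. Of 10 genes of mitochondrial DNA transcription and replication 7 lay below 0 at a median of -0.11, 4 by the interval and 1 above. For both groups the shares over all genes tested were 19.9% below 0 by the interval and 21.6% above. Mterf1b had 104 and 67 reads (-0.63), and its near-identical copy Mterf1a had 230 and 203 (-0.18), so reads of the copies may be divided wrongly. Ssbp1 had 2319 and 2004 reads (-0.21) and the RNA polymerase Polrmt 1238 and 1420 (0.20).

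The messages this ribosome translates stood on the other side of 0. Of 9 listed mRNAs encoded by mitochondrial DNA 8 lay above 0, at a median of 0.35, 7 by the interval. Their summed reads were 152851 and 170293, and the log2 ratio of the sums in CPM was lower than that median, at 0.15. Among complex I messages, mt-Nd2 had 2627 and 3834 reads (0.54, interval 0.47 to 0.62) and mt-Nd1 had 9493 and 11766 (0.31, interval 0.27 to 0.35). The most counted, mt-Co1 of complex IV, had 118919 and 124968 (0.07, interval 0.06 to 0.08), whereas mt-Co2 had 18 and 25 and mt-Co3 41 and 38, with intervals that held 0. Nuclear respiratory chain subunits, their partners in the complexes, had 62 of 78 genes below 0 at a median of -0.10, 46 by the interval and 9 above. Proteins of the cytosolic ribosome had 59 of 84 genes below 0 at a median of -0.047, 49 by the interval and 19 above. These 3 groups were gathered by symbol after earlier results were known, and the differences between groups were not tested. By the interval 19.9% of all genes tested lay below 0 and 21.6% above. Intervals narrow with reads, and with at least 1000 reads in 1 library these shares were 27.5% and 34.8%.

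**Figure D5:**
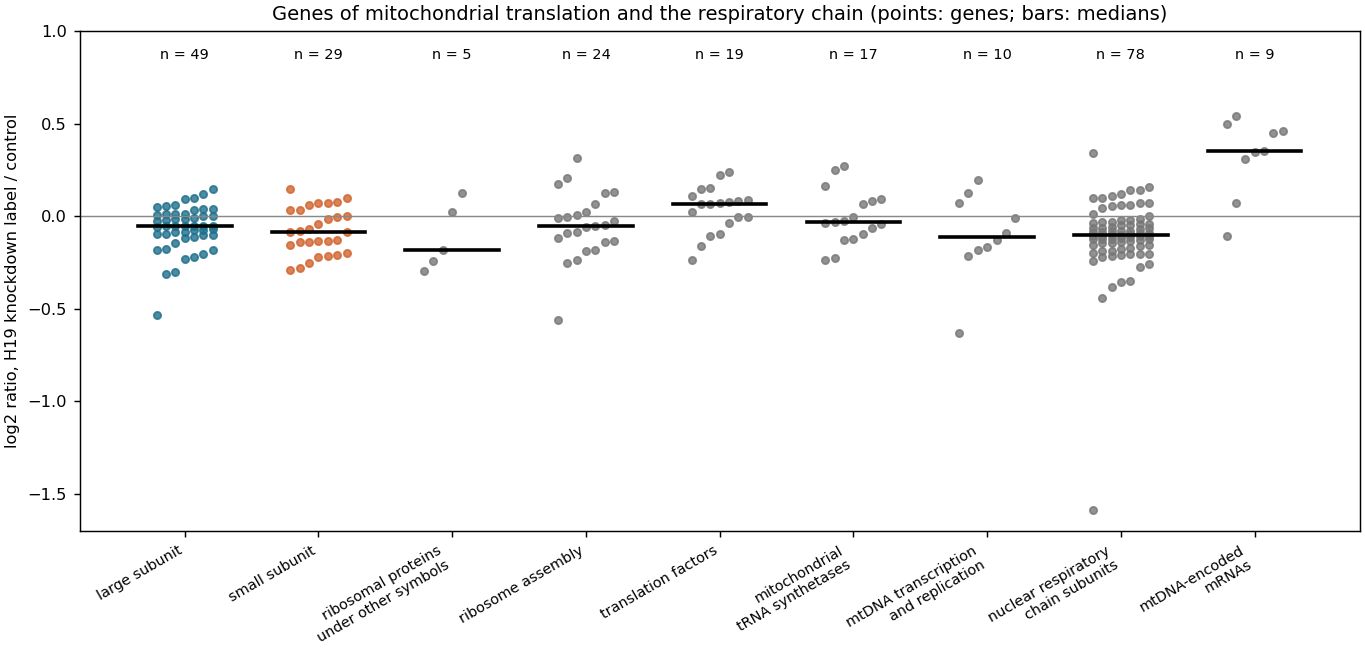
Log2 ratio (y axis) of single genes as points and the median as a bar, for the subunits and for further groups of genes of mitochondrial translation and respiration (x axis), with the number of genes above each. Bars of both subunits lie just below 0 at -0.054 and -0.083, that of translation factors at 0.067 and that of mRNAs encoded by mitochondrial DNA at 0.35.

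The counting of reads limits some members. On RefSeq spans 22 of 78 members share bases with another listed gene, and whether counting used strand is not stated in these sources. The median log2 ratio was -0.11 for these 22 and -0.052 for the other 56, of which 18 intervals lay below and 2 above 0. Over all genes tested 19.9% of intervals lay below and 21.6% above.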

How the data were processed

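The deposited mRNA tables give raw counts by gene symbol, made by the authors. Per the series' design text, trimmed reads were aligned to GRCm38 by STAR 2.5.2b; Trimmomatic 0.36 is in the submitters' processing notes. Counting program, annotation and strand: not given in the sources used here. Small RNA tables were not used. Apostrophes were removed from 37 symbols.

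Counts were scaled with edgeR 4.0.16 TMM sizes (R 4.3.3). Log2 ratios had 1 count added, with exact conditional binomial (Clopper-Pearson) 95% intervals, which cover counting error only; PCR copies are not independent molecules. Genes with at least 20 summed reads entered, which all 16211 had. Ratios and intervals were tested on simulated counts with counting error only, scaled to the total count. That test checks the computation and not the calls in these libraries. Chromosomes, starts and promoters came from RefSeq GRCm38.p6 by symbol or unique synonym (90.0% of symbols, all 78 members), transcript lengths from GENCODE M1, whose coordinates (NCBIM37) were not used. Ratios and figures were computed in Python 3.11.15 (scipy 1.17.1, pandas 2.3.3, matplotlib 3.10.9, numpy 2.4.6).

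Members and lists were chosen with earlier results of these data known. Named genes are the 5 highest and 5 lowest ratios per subunit with at least 100 reads, the 5 most and 5 least counted members, the S18 paralogs, Mrps30, Mrps36, H19 and up to 4 genes per other list (1 is not reported here); all others, among them Mrpl23, head-to-head pairs, Nrf1 and Gabpa, were chosen after their values were seen. Alternatives were total count, DESeq2 1.42.0 or reduced TMM scaling, other added counts, minimums, fold limits, the mean, chromosome medians and subunit by structure.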

Additional observations from a re-analysis of the deposited data

How the results depend on the processing

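No paired analysis was possible because each group holds 1 library, so no replicate could be left out either. The median log2 ratio of members was -0.076 with scaling to the total count, which moved the median of all genes to -0.020. Intervals above 0 then numbered 1 in all, 1 in the large and 0 in the small subunit. In the small subunit 1 interval lay above 0 with TMM without the 10 most counted genes and 1 with at least 1000 reads. With chromosome medians subtracted 4 large and 0 small subunit genes had intervals above 0, and the subunit medians differed by 0.069 in place of 0.029. At 1.2-fold 5 members were lower (3 large, 2 small) and 0 higher, and at 1.5-fold 0 were lower and 0 higher; stricter limits give fewer calls by construction. Chosen after seeing the data, leaving out members on chromosomes 4, 6 and 19 gave a large subunit median of -0.025 with 10 large subunit intervals below 0, and leaving out overlapping genes gave 18 members below 0 (9 large) and 2 above (0 small), with fewer genes by construction. Both subunit medians stayed below 0 under each alternative run. Elsewhere the cause was not tested. Of 186 values of 31 named members 179 stayed within the counting interval. Scaling and added counts shift these ratios little beside the intervals, so values under those settings could hardly have moved out. The 7 others moved with chromosome medians, which turned Mrpl43 to 0.048 and Mrps15 to 0.13.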
